A study of Homo sapiens with 8 samples.

Results

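Fatty acid oxidation in human liver cell cultures was followed through 8 genes: PPARA, the carnitine enzymes CPT1A and CPT2, the mitochondrial enzymes ACADM, ACADS and HADHA, the peroxisomal enzyme EHHADH, and the fatty acid hydroxylase CYP4A11. They were taken as every probe of the Illumina HumanHT-12 v4 array whose platform symbol is one of these names, 13 of 47323 probes and 8 of the 20046 genes with a symbol there. PPARA and CPT1A had 3 probes each, ACADM had 2, and the other genes had 1 each. The array reads each bead-bound probe in 1 colour as an intensity, with a detection p-value that ranks the probe against negative-control beads. A probe was called detected at a detection p-value under 0.05.

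The 8 arrays fell into 3 culture forms, all kept for 5 days. In perfused 3D culture (label 3DBR, n = 2), cells sat on a MatriGrid, a microporous polycarbonate support, inside a bioreactor fed by a peristaltic pump. In static 3D culture (label 3D, n = 3), the same support stood in a well without flow. In 2D culture (n = 3), cells grew as a monolayer and served as the control. Seeding was 1000000 cells for both 3D forms and 250000 for 2D, so the support and the cell number differ together between 3D and 2D. The design text describes hepatocytes of 3 donors, whereas the sample labels name the hepatocarcinoma line HepG2, and this conflict was not resolved here. Perfused cultures number 3 in the design text but have 2 arrays here, and no label ties an array to a donor. The p-values below therefore measure the spread between these arrays, whatever its source.

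Fatty acids are burned in several compartments. CPT1A attaches carnitine to a long-chain fatty acid at the outer mitochondrial membrane, the main control point of the pathway, and CPT2 removes it on the inner side. Acyl-CoA dehydrogenases such as ACADM (medium chains) and ACADS (short chains) and the trifunctional protein with its subunit HADHA then shorten the chain. Peroxisomes run a parallel route in which EHHADH is the bifunctional enzyme, and CYP4A11 hydroxylates the far end of the chain in the endoplasmic reticulum (omega-oxidation). PPARA is the nuclear receptor that binds fatty acids, pairs with RXR and switches on many of these genes in fasted liver.

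Before normalisation the median intensity of the arrays ran from 279 to 386 units, and 29.7% to 34.3% of probes were detected per array. All 8 markers of hepatocytes tested (ALB and APOA1 among them) were detected on all 8 arrays. Static 3D replicate 1 and 2D replicate 1 stood apart from the other 6 arrays. The mean log2 level of 11 macrophage markers was 7.22 on static 3D replicate 1 and 7.13 on 2D replicate 1, against 9.43 to 10.6 on the other 6. Of these 11 markers, 3 were detected on static 3D replicate 1 and 5 on 2D replicate 1, against 9 to 11 elsewhere. The markers did not all fall alike. C1QB, which encodes a complement chain made by macrophages, was at 5.44 and 5.46 on those arrays and at 10.9 to 12.8 elsewhere. CD68 was at 12.10 and 11.45 on those arrays, within its range of 11.27 to 13.02 elsewhere. Of 8 stellate cell and fibroblast markers, 2 were detected on each of those arrays, against 7 or 8 elsewhere, and 7 of 7 dividing cell markers were detected on each, against 2 to 5 elsewhere. 2D replicate 1 also had the lowest mean of the hepatocyte markers, 12.64 against 13.95 to 14.81 on the other 7 arrays. All 5 tested bile duct markers were detected on all 8 arrays, and of 2 tested endothelial markers none was detected on those arrays and 1 or 2 elsewhere. The markers CD5L, CFTR, STAB2, LYVE1, CLEC4G, KDR, CDH5 and MKI67 did not pass the filter on dim probes. Both perfused arrays and static 3D replicate 1 were hybridised on 1 chip and the remaining 5 arrays on another, so perfused 3D and 2D share no chip. In RNA from whole cultures, fewer cells of a type and less RNA per cell cannot be told apart.

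PPARA was not detected by any of its 3 probes on any array, 0 of 24 readings. The detection p-values of these readings lay between 0.158 and 0.866. The probe with the highest readings of PPARA gave 271 and 313 intensity units in perfused 3D, 327, 343 and 375 units in static 3D, and 284, 269 and 318 units in 2D. Static 3D gave the highest values before normalisation, but every value ranked among the negative controls, so no level and no fold change can be given for PPARA. The receptor's gene was therefore left out of the fit, and the 7 other members passed the filter on dim probes.

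**Figure D1:**
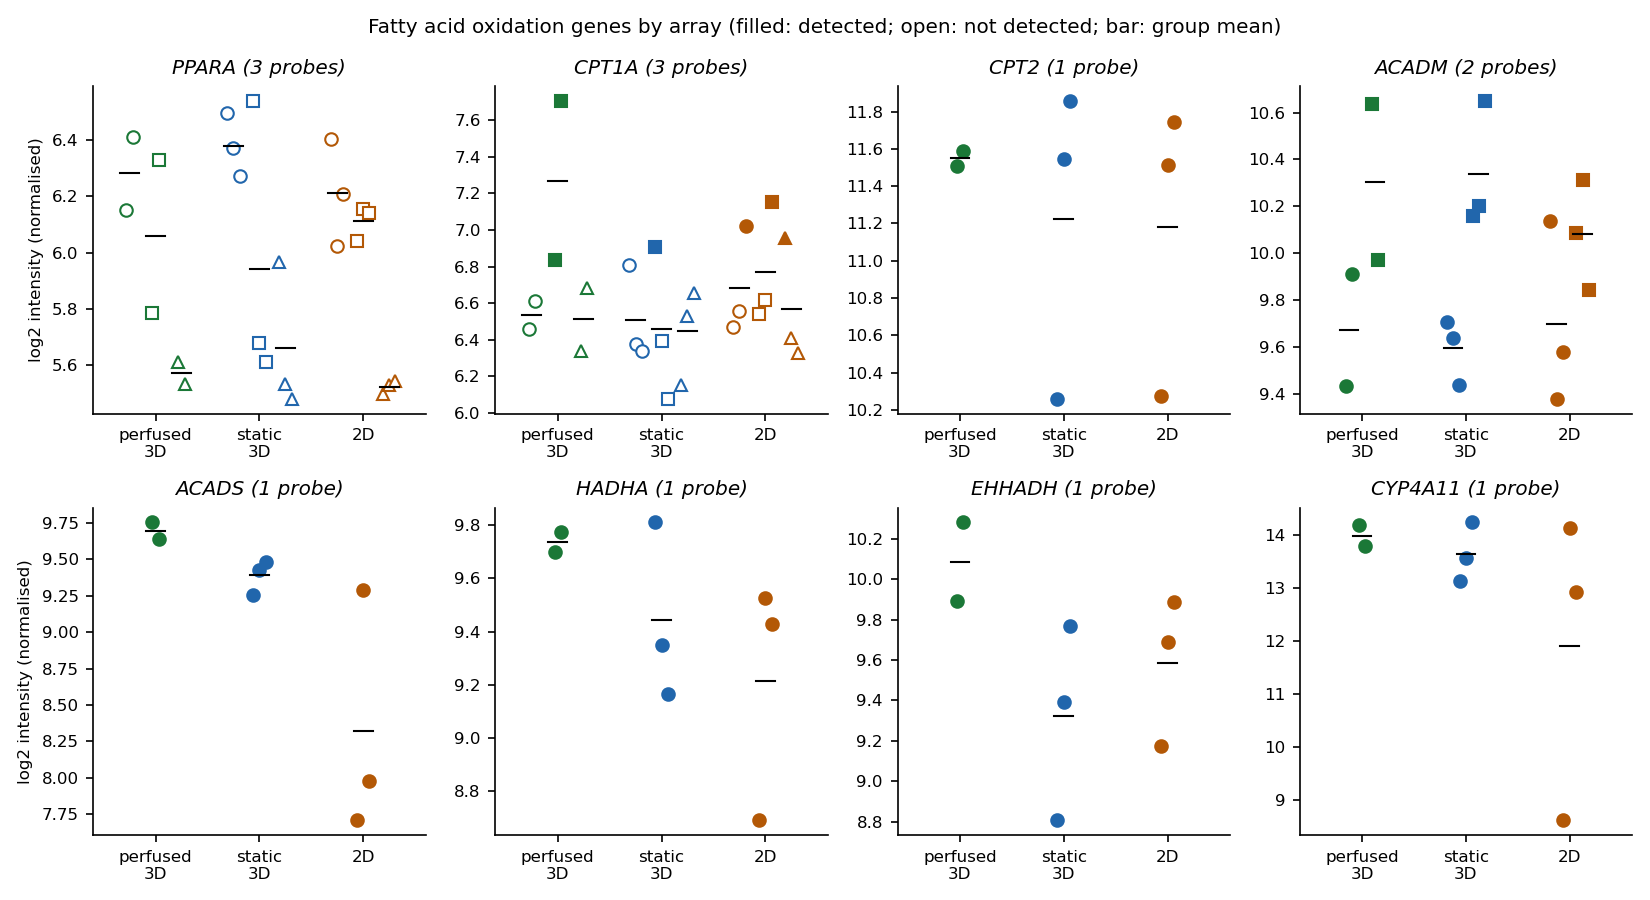
Normalised log2 intensity of every probe of the 8 genes on each array, by culture form (perfused 3D n = 2, static 3D n = 3, 2D n = 3). Marker shapes separate the probes of 1 gene, filled points are detected at p under 0.05, open points are not, bars are group means, and each panel has its own axis. All PPARA points are open, and CYP4A11 has 1 point at 8.63 far below the other 7.

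CPT1A, the entry gate of the mitochondrial route, lay close to background. Its brightest probe gave 335 and 474 intensity units in perfused 3D, 371, 346 and 347 units in static 3D, and 298, 337 and 424 units in 2D. It was detected on both perfused arrays (detection p of 0.0429 and 0.0013), on 1 of 3 static arrays (0.0325) and on 1 of 3 2D arrays (0.0195). After normalisation the log2 level averaged 7.27 ± 0.62 in perfused 3D (SD, n = 2), 6.46 ± 0.42 in static 3D and 6.77 ± 0.33 in 2D (SD, n = 3 each). Perfused replicate 2 was the highest array at 7.70, while perfused replicate 1, at 6.83, lay below 2D replicate 3 at 7.15, so the groups overlap. The other probes of CPT1A were detected on 1 array each, both of them 2D arrays, and only 6 of the 24 CPT1A readings passed the detection threshold.

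CPT2, which completes the carnitine shuttle, split the arrays in a way that cut across the culture forms. Its log2 levels were 11.51 and 11.59 in perfused 3D, 10.26, 11.55 and 11.86 in static 3D, and 10.28, 11.52 and 11.75 in 2D. The low values are those of static 3D replicate 1 and 2D replicate 1, the arrays with low macrophage and fibroblast markers and high dividing cell markers. Their part in the CPT2 values was not tested. The group means were 11.55 ± 0.06 in perfused 3D (SD, n = 2), 11.22 ± 0.85 in static 3D and 11.18 ± 0.79 in 2D (SD, n = 3 each), and all 3 groups overlap.

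ACADM, the medium-chain dehydrogenase, was detected by both of its probes on all 8 arrays. The brighter probe gave log2 levels of 10.64 and 9.97 in perfused 3D, 10.16, 10.20 and 10.65 in static 3D, and 10.09, 10.31 and 9.84 in 2D. The other probe gave 9.44 and 9.91 in perfused 3D, 9.71, 9.64 and 9.44 in static 3D, and 10.14, 9.38 and 9.58 in 2D. The probes order the arrays differently: perfused replicate 1 is among the highest arrays for the brighter probe and among the lowest for the other. In perfused 3D against 2D the brighter probe gave 0.22 and the other -0.026, and in static 3D against 2D they gave 0.25 and -0.10.

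ACADS, the short-chain dehydrogenase, was the member that separated 3D from 2D most clearly. Its probe gave 959 and 1124 intensity units in perfused 3D, 945, 879 and 1042 units in static 3D, and 454, 852 and 530 units in 2D. The normalised log2 levels were 9.75 and 9.64 in perfused 3D, 9.26, 9.43 and 9.48 in static 3D, and 7.71, 9.29 and 7.98 in 2D. Both perfused arrays lay above all static and all 2D arrays, and static 3D replicate 1 (9.26) lay just under 2D replicate 2 (9.29). The means were 9.70 ± 0.08 in perfused 3D (SD, n = 2), 9.39 ± 0.12 in static 3D and 8.32 ± 0.84 in 2D (SD, n = 3 each). The wide spread in 2D comes from 2 low arrays, 2D replicates 1 and 3, with 5 and 10 of 11 macrophage markers detected. The part of the cell types in the ACADS values was not tested.

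HADHA, the alpha subunit of the trifunctional protein, differed less between groups. Its log2 levels were 9.70 and 9.77 in perfused 3D, 9.81, 9.35 and 9.16 in static 3D, and 8.69, 9.53 and 9.43 in 2D. Both perfused arrays lay above all 2D arrays, whereas static 3D replicate 1 was the highest of the 8. HADHB, which encodes the other subunit, had 8.91 and 9.20 in perfused 3D, 8.81, 9.02 and 9.22 in static 3D, and 8.50, 9.38 and 9.55 in 2D, so that its perfused arrays lay within the 2D range.

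The promoters of ACADS and HADHA are shown because both perfused arrays lay above every 2D array for these genes. EHHADH met the same rule, but no promoter window was found for it. The 250 bases before the start of each gene are from RefSeq (GRCh38.p14), with GC boxes in capitals (GGGCGG, or CCGCCC where the motif lies on the other strand). The ACADS stretch is chr12:120725576-120725825 on the plus strand and the HADHA stretch is chr2:26244633-26244882 on the minus strand.
ACADS: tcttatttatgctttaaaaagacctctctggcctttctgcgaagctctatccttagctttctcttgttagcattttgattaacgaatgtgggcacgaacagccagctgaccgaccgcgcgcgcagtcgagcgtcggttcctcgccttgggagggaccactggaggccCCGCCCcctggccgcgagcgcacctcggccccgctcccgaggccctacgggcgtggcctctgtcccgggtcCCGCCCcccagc
HADHA: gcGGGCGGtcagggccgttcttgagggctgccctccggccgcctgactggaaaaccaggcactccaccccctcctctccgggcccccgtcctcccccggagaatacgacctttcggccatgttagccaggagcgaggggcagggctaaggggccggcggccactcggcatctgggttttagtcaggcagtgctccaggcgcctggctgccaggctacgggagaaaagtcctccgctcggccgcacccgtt
ACADS has 2 GC boxes and 62.8% G or C in this stretch, and HADHA has 1 GC box and 68.8%. Windows of 300 bases (250 before the start) were found for 6 of the 8 genes, 7 windows in all. Searched on both strands, GGGCGG occurs in 6 of these 7 windows and in 45% of 35116 RefSeq windows of the same length. AGGTCA, the core that PPARA and RXR read, occurs in 0 of the 7 and in 13.8% of all windows. Its direct repeat with a spacing of 1 base, in which that core is contained, occurs in 0 of the 7 and in 0.0228% of all windows. These counts describe the letters of the windows only.

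EHHADH, the bifunctional enzyme of the peroxisome, was highest in perfused 3D. Its log2 levels were 9.89 and 10.28 in perfused 3D, 8.81, 9.39 and 9.77 in static 3D, and 9.17, 9.69 and 9.89 in 2D. Both perfused arrays lay above all static arrays, and above all 2D arrays by a margin that vanishes at 2 decimals between perfused replicate 1 and 2D replicate 3. The means were 10.09 ± 0.28 in perfused 3D (SD, n = 2), 9.32 ± 0.48 in static 3D and 9.58 ± 0.37 in 2D (SD, n = 3 each). Static 3D replicate 1 was the lowest of the 8 arrays.

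CYP4A11, the omega-hydroxylase, varied more than any other member. Its probe gave 16458 and 15184 intensity units in perfused 3D, 9569, 11668 and 20123 units in static 3D, and 681, 18103 and 8018 units in 2D. On the log2 scale these were 14.18 and 13.79 in perfused 3D, 13.14, 13.57 and 14.24 in static 3D, and 8.63, 14.14 and 12.94 in 2D. A single array, 2D replicate 1, lay far below the other 7, and the remaining 2D arrays lay inside or just under the 3D range. The levels spanned 5.61 on the log2 scale over the 8 arrays, and the SD ranked at the 99.6th percentile of the 11031 genes tested. The means were 13.99 ± 0.28 in perfused 3D (SD, n = 2), 13.65 ± 0.55 in static 3D and 11.90 ± 2.90 in 2D (SD, n = 3 each). On the same array the 8 hepatocyte markers averaged 12.64, and their part in the CYP4A11 value was not tested.

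**Figure D2:**
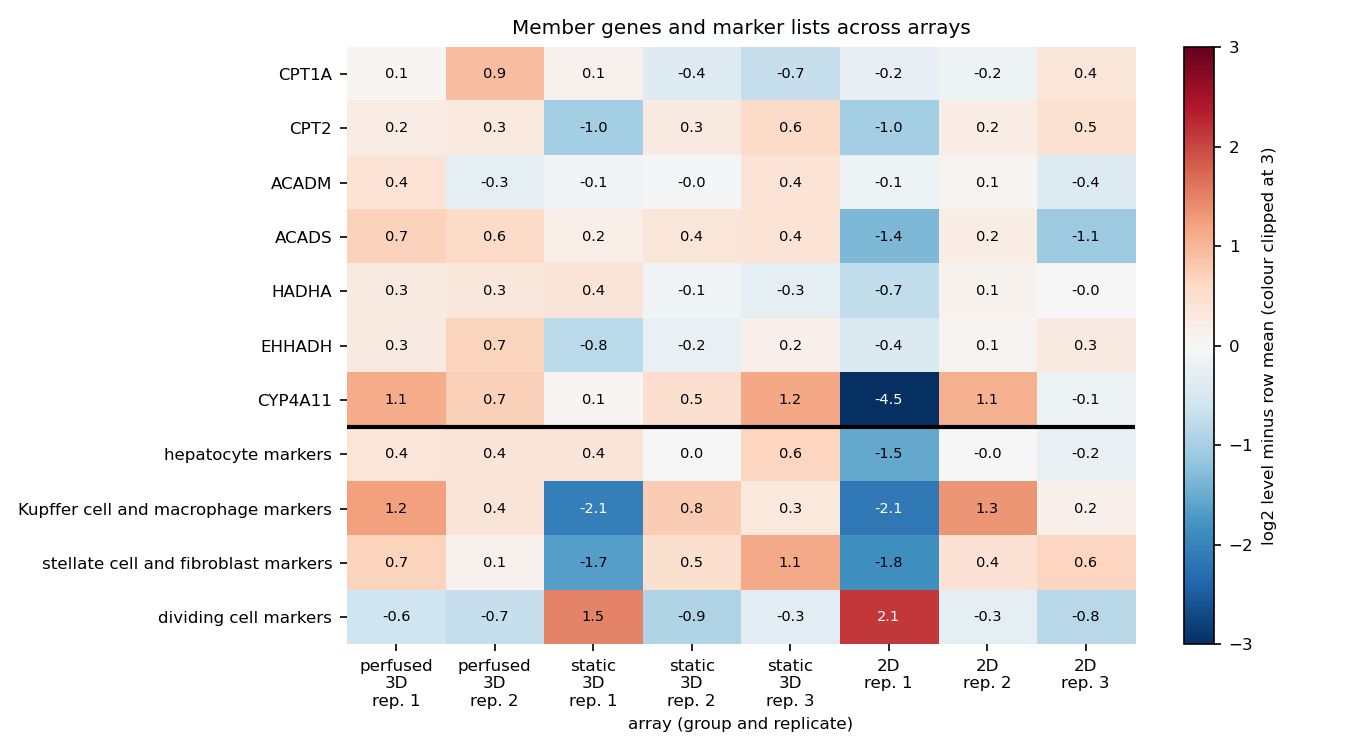
Log2 level of the 7 tested genes, and mean log2 level of 4 marker lists, on each array, minus the mean of the row. Red is above and blue below the row's mean. CYP4A11 is 4.5 below its mean on 2D replicate 1, CPT2 is 1.0 below on static 3D replicate 1 and 2D replicate 1, and the macrophage and fibroblast markers are low on those same arrays.

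Perfused 3D was first compared with 2D. All 7 tested members were higher in perfused 3D on average, with ACADS higher by 1.37 on the log2 scale (SE 0.44, 95% interval 0.37 to 2.38, a 2.59-fold difference) and CYP4A11 by 2.09 (SE 1.33, interval -0.94 to 5.11). HADHA was higher by 0.52 (SE 0.33), EHHADH by 0.50 (SE 0.36), CPT1A by 0.50 (SE 0.36), CPT2 by 0.37 (SE 0.55) and ACADM by 0.22 (SE 0.30). None of the 7 passed the limma test at an adjusted p of 0.05, where 0.00907% of all genes (1 of 11031) did. ACADS had an adjusted p of 0.964 in limma, and it was the only member with an unadjusted p under 0.05, a threshold that 4.22% of all genes passed (2.51% higher, 1.71% lower). For ACADS, HADHA and EHHADH both perfused arrays lay above all 3 2D arrays, 3 of 7 members against 10.8% of all genes in that direction and 10.1% in the other. The median of the 7 fold changes was 0.50, beside 0.008 over all genes, and 50.8% of all genes had a fold change above 0. Marker lists moved in the same comparison: perfused 3D exceeded 2D in 7 of 8 hepatocyte markers (median 0.94; list means 14.54 and 14.55 in perfused 3D, against 12.64, 14.15 and 13.95 in 2D) and in 11 of 11 macrophage markers (median 0.95; 10.50 and 9.66, against 7.13, 10.59 and 9.43 in 2D). All 7 dividing cell markers were lower (median -1.11; list means 6.82 and 6.73 in perfused 3D, against 9.56, 7.14 and 6.60 in 2D). Of 8 stellate cell and fibroblast markers, 7 were higher (median 0.56). The part of these lists in the members' values was not tested.

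The values moved when 2D replicate 1 was left out. CYP4A11 was then higher by 0.45, ACADS by 1.06, HADHA by 0.26 and EHHADH by 0.30 in perfused 3D, and CPT2 was at -0.082. Without 2D replicate 2 instead, CYP4A11 stood at 3.21 and ACADS at 1.85. CPT1A depended on the perfused arrays, at 0.063 without perfused replicate 2 and 0.93 without perfused replicate 1. ACADM likewise stood at -0.11 without perfused replicate 1 and at 0.56 without perfused replicate 2.

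Static 3D was next compared with 2D, where the support and the seeded cell number differ together. ACADS was higher in static 3D by 1.06 (SE 0.39, 95% interval 0.17 to 1.96) and CYP4A11 by 1.75 (SE 1.19). ACADM was higher by 0.25 (SE 0.27), HADHA by 0.23 (SE 0.30) and CPT2 by 0.043 (SE 0.49), while CPT1A was lower by 0.31 (log2 fold change -0.31, SE 0.32) and EHHADH was at -0.26 (SE 0.32). None of the 7 members passed the limma test at an adjusted p of 0.05, and 0% of all genes did. ACADS had a limma adjusted p of 0.940 and was again the only member with an unadjusted p under 0.05, a threshold passed by 4.7% of all genes (518 genes, 2.64% higher and 2.06% lower). No member had all its static arrays above or below all 2D arrays, while 4.96% of all genes lay above and 5.18% below. The median of the 7 was 0.23, with 5 of 7 above 0 against 50.1% of all genes. Hepatocyte markers were higher in static 3D for 7 of 8 genes (median 0.81; list means 14.55, 14.19 and 14.81), macrophage markers for 3 of 11 (median -0.15; 7.22, 10.03 and 9.59), and dividing cell markers for 1 of 7 (median -0.29), and their part was not tested. Without 2D replicate 1 CYP4A11 stood at 0.11, ACADS at 0.76, HADHA at -0.035 and CPT2 at -0.41. With static 3D replicate 1 left out as well, CYP4A11 stood at 0.37, ACADS at 0.82, HADHA at -0.22 and CPT2 at 0.072. Without 2D replicate 2, CYP4A11 stood at 2.87 and ACADS at 1.55. CPT2 also moved with the static arrays, to 0.52 without static 3D replicate 1, -0.12 without replicate 2 and -0.27 without replicate 3.

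**Figure D3:**
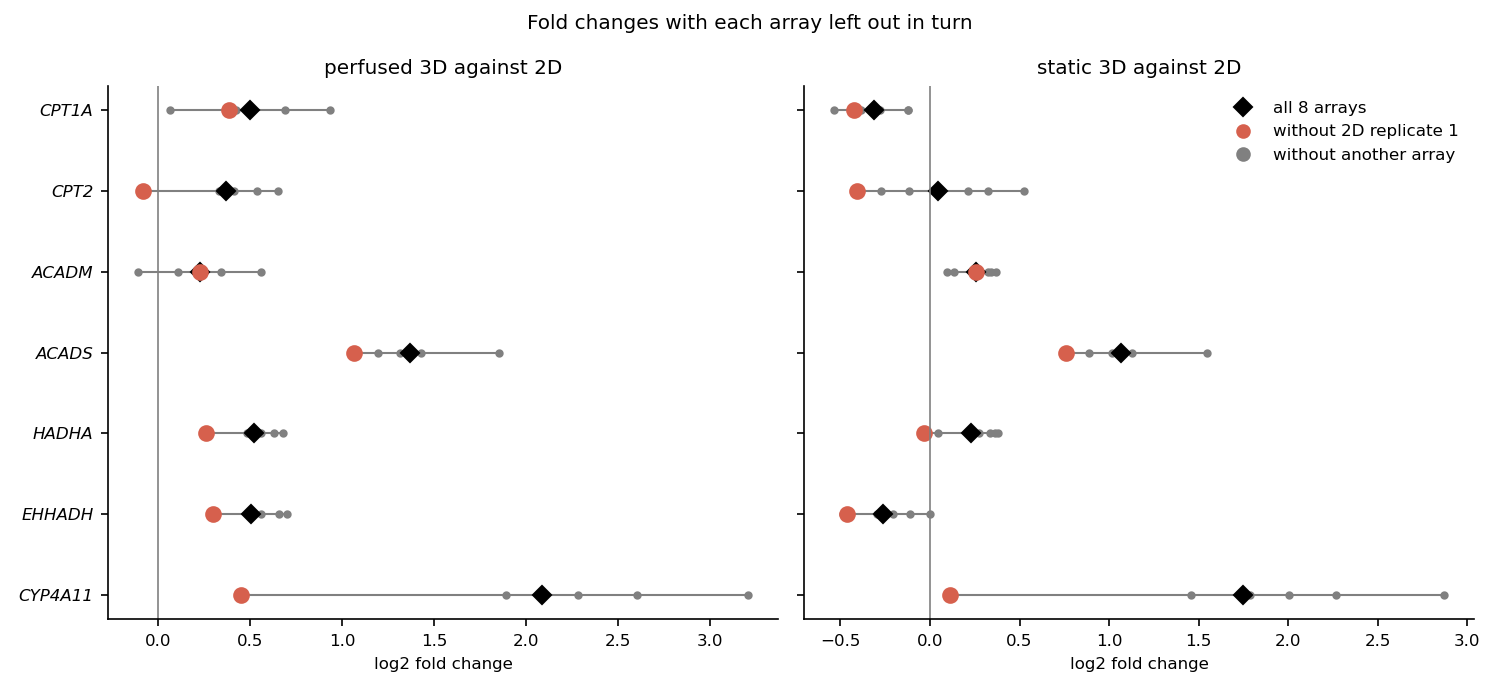
Log2 fold change of each tested gene in perfused 3D against 2D and in static 3D against 2D, with all 8 arrays (black diamonds), without 2D replicate 1 (red) and without each other array in turn (grey). Without 2D replicate 1 CYP4A11 stands at 0.45 in place of 2.09 and at 0.11 in place of 1.75, while ACADS stays between 0.76 and 1.85 over both panels.

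Perfused 3D was last compared with static 3D, on the same support. Flow and vessel (bioreactor or well) differ together here, and static 3D replicates 2 and 3 were on another chip than the perfused arrays. CPT1A was higher in perfused 3D by 0.81 (SE 0.36, 95% interval -0.01 to 1.63) and EHHADH by 0.76 (SE 0.36, interval -0.05 to 1.58). The CPT1A size is taken against static arrays of which 1 of 3 detected the probe, and the other CPT1A probes, which did not pass the filter, gave 0.028 and 0.066 here and -0.15 and -0.054 in perfused 3D against 2D. CYP4A11 was higher by 0.34 (SE 1.33), CPT2 by 0.33 (SE 0.55), ACADS by 0.31 (SE 0.44) and HADHA by 0.29 (SE 0.33), and ACADM was at -0.030 (SE 0.30). None of the 7 passed the limma test at an adjusted p of 0.05, where 0.00907% of all genes did, and none had an unadjusted p under 0.05, which 1.88% of all genes had (1.12% higher, 0.752% lower). The adjusted p in limma was 0.9997 for CPT1A and for EHHADH. Both perfused arrays lay above all 3 static arrays for ACADS and EHHADH, 2 of 7 members against 8.95% of all genes in that direction and 8.31% in the other. Of the 7, 6 had a fold change above 0, against 50.2% of all genes. In this comparison 5 of 8 hepatocyte markers (median 0.077) and 11 of 11 macrophage markers (median 0.98) were higher and 7 of 7 dividing cell markers lower (median -0.78), with their part not tested. Without static 3D replicate 1 CPT1A stood at 1.03, EHHADH at 0.50, CYP4A11 at 0.08 and CPT2 at -0.15. Without perfused replicate 2 CPT1A stood at 0.37. The comparisons share arrays, so their values are not independent of each other.

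**Figure D4:**
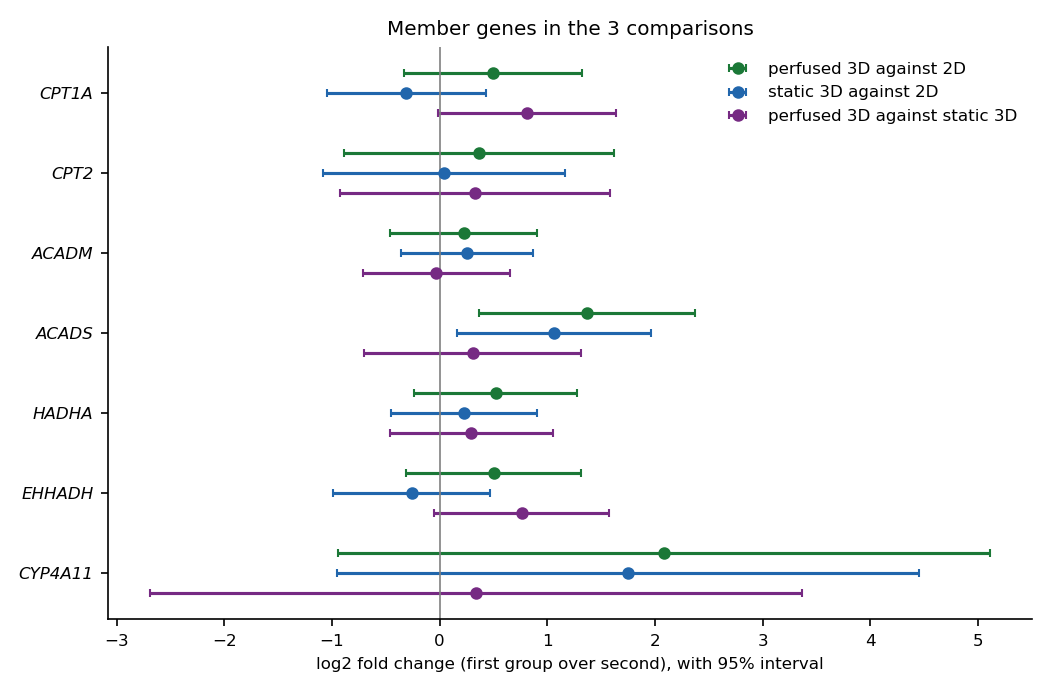
Log2 fold change (first group over second) of the 7 tested genes in the 3 comparisons, with 95% intervals from limma. The ACADS intervals against 2D lie above 0 before adjustment for the number of genes, and the CYP4A11 intervals are the widest.

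With chip as a block the comparisons rest on arrays of the same chip, and static 3D replicate 1 alone links the chips. Perfused 3D against 2D then gave 1.81 for CPT2, 1.57 for ACADS, 1.28 for EHHADH, 2.85 for CYP4A11, 0.49 for ACADM, -0.032 for HADHA and -0.17 for CPT1A. Static 3D against 2D, within the second chip, gave 1.13 for ACADS, 2.01 for CYP4A11, 0.52 for CPT2, 0.34 for ACADM, 0.042 for HADHA, -0.003 for EHHADH and -0.53 for CPT1A. Perfused against static 3D, within the first chip and thus against a single static array, gave 1.29 for CPT2, 1.28 for EHHADH, 0.85 for CYP4A11, 0.44 for ACADS, 0.36 for CPT1A, 0.15 for ACADM and -0.075 for HADHA. ACADS, CPT2, CYP4A11 and EHHADH kept the direction of their main values in all of these comparisons. No member passed the limma test in any comparison with chip as a block.

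The wider mitochondrial pathway, 17 tested genes of the carnitine shuttle and beta-oxidation beside the members, showed 13 higher and 4 lower in perfused 3D than in 2D, with a median of 0.25 and none called. Against 2D, static 3D had 9 higher and 8 lower with a median of 0.05, and perfused against static 3D had 14 higher and 3 lower with a median of 0.19. ACADVL, the very-long-chain dehydrogenase, had 14.72 and 14.66 in perfused 3D, against 12.96, 14.45 and 14.40 in 2D, a difference of 0.75 (SE 0.41), or 0.26 without 2D replicate 1. ECI2, an enoyl-CoA isomerase, was at -0.73 (SE 0.45) in perfused 3D against 2D, at -0.30 without 2D replicate 1 and at -0.34 without perfused replicate 2. SLC22A5, the carnitine transporter of the cell membrane, was at -0.85 (SE 0.26) in static 3D against 2D and at 0.63 (SE 0.29) in perfused against static 3D. It was detected on only 1 of 3 static arrays, so both sizes are taken against values near background. ACADSB, the dehydrogenase of short branched chains, was at 0.60 (SE 0.25) in static 3D against 2D and at -0.61 (SE 0.27) in perfused against static 3D.

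Of 10 tested peroxisomal genes, perfused 3D had 7 above the 2D mean (median 0.25) and 6 above the static mean (median 0.09), while static 3D had 5 above the 2D mean (median -0.01), none of them called. AMACR, which racemises branched-chain acyl-CoA, stood at 0.66 (SE 0.42) in perfused 3D against 2D and at 0.96 (SE 0.42) against static 3D. Its perfused arrays were at 8.81 and 10.04, and without perfused replicate 2 these values were 0.040 and 0.34. ACOX2, the branched-chain acyl-CoA oxidase, was at 0.40 (SE 0.33) in perfused and at 0.62 (SE 0.30) in static 3D, both against 2D, and at -0.60 in perfused 3D against 2D with chip as a block. ACAA1, the peroxisomal thiolase, was at 0.41 (SE 0.36) in perfused against static 3D, and ACOT8, a peroxisomal thioesterase, was at -0.30 (SE 0.29) in static 3D against 2D.

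All 7 tested omega-oxidation genes beside CYP4A11 had fold changes above 0 in each of the 3 comparisons. The medians were 0.67 for perfused 3D against 2D, 0.39 for static 3D against 2D and 0.48 for perfused against static 3D. Of all genes, 50.8%, 50.1% and 50.2% lay above 0 in these comparisons. The smallest values were 0.006 in static 3D against 2D and 0.002 in perfused against static 3D. On 2D replicate 1 the list mean was 8.82, against 9.52 to 10.53 on the other arrays. None was called. In perfused 3D against 2D, CYP4F3 and CYP4F12 had an unadjusted p under 0.05, where 2.51% of all genes did in that direction. CYP4A22 also lay under that threshold, but it was read against 2D values that were not detected. It passed the filter on dim probes through the perfused arrays alone, so it adds nothing to such a count. The number of genes above 0 and the medians of this list include CYP4A22. CYP4A22, the near-identical neighbour of CYP4A11, was detected on both perfused arrays (7.21 and 6.82 on the log2 scale) and on no static array (6.15, 6.15 and 6.65) or 2D array (5.92, 6.39 and 6.44). Its perfused mean was at least 1.15-fold above 2D and 1.10-fold above static 3D, taking the lowest detected signal of each dim array as its limit. Perfused replicate 2 (6.82) lay under that limit on 2D replicate 3 (6.89) and static 3D replicates 2 and 3 (6.95 and 6.86). The bounds therefore hold for the means only. Whether the probes of CYP4A11 and CYP4A22 bind the other gene's transcript was not tested. CYP4F12, another fatty acid hydroxylase, was at 1.19 (SE 0.48) in perfused and at 0.71 (SE 0.43) in static 3D against 2D, and these values were 0.71 and 0.23 without 2D replicate 1. CYP4F3 was at 0.42 (SE 0.45) in static 3D against 2D (-0.046 without 2D replicate 1) and at 0.75 (SE 0.50) in perfused against static 3D.

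Of the ketone body genes, BDH1, which interconverts the main ketone bodies, and ACAT1, the thiolase that joins acetyl groups, were tested. BDH1 was at 0.51 (SE 0.56) in perfused 3D against 2D, 0.25 (SE 0.50) in static 3D against 2D and 0.27 (SE 0.56) in perfused against static 3D. ACAT1 was at 0.26 (SE 0.32), 0.12 (SE 0.29) and 0.14 (SE 0.32) in the same comparisons, and neither gene was called. All these values are below their standard errors. With chip as a block BDH1 turned to -0.997, -0.26 and -0.74, and single left-out arrays took BDH1 to -0.26 in static 3D against 2D and to -0.34 in perfused against static 3D, and ACAT1 to -0.072 in both comparisons that involve static 3D.

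Among 8 tested genes of fatty acid uptake and activation, perfused 3D exceeded 2D in 7 (median 0.28), and 5 were higher in each of the other comparisons (medians 0.18 and 0.33), none called. CD36, a fatty acid translocase that macrophages also carry, had log2 levels of 9.86 and 8.27 in perfused 3D, 5.70, 8.35 and 8.52 in static 3D, and 5.65, 9.42 and 7.08 in 2D. Its lowest values fell on static 3D replicate 1 and 2D replicate 1, the arrays with macrophage markers at 7.22 and 7.13, and the part of macrophage RNA in CD36 was not tested. CD36 was detected on 2 of 3 static and 2 of 3 2D arrays, so its sizes are taken partly against values near background. CD36 was at 1.68 (SE 1.18) in perfused 3D against 2D and at 1.55 (SE 1.18) against static 3D. Without 2D replicate 1 the first value was 0.82, without static 3D replicate 1 the second was 0.63, and without perfused replicate 1 they were 0.89 and 0.75. ACSM3, a medium-chain acyl-CoA synthetase, was at 0.60 (SE 0.32) in perfused and 0.36 (SE 0.29) in static 3D against 2D. It was detected on 2 of 3 2D arrays. SLC27A2, an acyl-CoA synthetase of very long chains, was at -0.43 (SE 0.34) in static 3D against 2D and at 0.64 (SE 0.38) in perfused against static 3D.

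The PPARA target genes outside the oxidation enzymes were tested for 15 of 16 listed genes. Perfused 3D had 14 of 15 higher than 2D, with a median of 0.84. Of them, 5 had an unadjusted p under 0.05, where 2.51% of all genes did in that direction. The counts and the median include APOA5, which was detected on 1 of 2 perfused arrays and on 0 of 3 2D arrays. Static 3D had 9 of 15 higher than 2D, with a median of 0.08 and 4 genes at that threshold, where 2.64% of all genes lay. Perfused 3D had 11 of 15 higher than static 3D, with a median of 0.34. None of the 15 was called in any comparison, and several of these genes answer to other regulators too.

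CREB3L3, a liver transcription factor of fasting, had log2 levels of 10.81 and 10.03 in perfused 3D, 9.76, 10.45 and 9.89 in static 3D, and 6.99, 9.67 and 7.39 in 2D. All 3D arrays lay above all 2D arrays, though static 3D replicate 1 (9.76) only just exceeded 2D replicate 2 (9.67). Of all genes, 10.8% had every perfused array above every 2D array, and 4.96% every static array. The CREB3L3 group mean exceeded that of 2D by 2.40 (SE 0.72) in perfused and 2.02 (SE 0.64) in static 3D. Without 2D replicate 1 these differences of means were 1.89 and 1.50. PLIN2, which coats lipid droplets, had 14.60 and 14.54 in perfused 3D, 13.80, 14.35 and 14.54 in static 3D, and 13.07, 13.91 and 13.83 in 2D. It was at 0.97 (SE 0.31) in perfused and 0.63 (SE 0.28) in static 3D against 2D, and at 0.70 and 0.36 without 2D replicate 1.

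ANGPTL4, a secreted inhibitor of lipoprotein lipase, had 13.78 and 13.37 in perfused 3D, 13.15, 13.96 and 13.70 in static 3D, and 11.26, 12.55 and 13.19 in 2D. It was at 1.24 (SE 0.51) in perfused and 1.27 (SE 0.46) in static 3D against 2D, and at 0.71 and 0.73 without 2D replicate 1. TXNIP, a thioredoxin-binding protein that responds to glucose, was at 1.89 (SE 0.58) in static 3D against 2D, and at 1.20 without 2D replicate 1. APOA5, an apolipoprotein that lowers plasma triglyceride, was detected on 1 of 2 perfused arrays (6.59 and 7.39, the second detected) and on 0 of 3 2D arrays (5.62, 5.99 and 5.91), so no size is given for its difference.

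PDK4, the kinase that shuts pyruvate out of oxidation and a standard readout of PPARA activity, did not separate the groups. Its log2 levels were 8.74 and 8.09 in perfused 3D, 6.50, 9.40 and 8.05 in static 3D, and 6.91, 9.91 and 7.82 in 2D. It was detected on 2 of 3 static arrays, and the 6.50 on static 3D replicate 1 was not detected. PDK4 was at 0.20 (SE 0.98) in perfused and -0.23 (SE 0.88) in static 3D against 2D. Perfused against static 3D gave 0.43 (SE 0.98) for PDK4, -0.03 (SE 0.51) for ANGPTL4 and 0.34 (SE 0.31) for PLIN2. UCP2, a mitochondrial carrier, was at 1.76 (SE 0.88) and ACOT2, a mitochondrial thioesterase, at 1.19 (SE 0.91) in perfused against static 3D, with the lowest of their values on static 3D replicate 1 (5.65 for UCP2 and 7.66 for ACOT2). UCP2 was detected on only 1 of 3 static arrays, and ACOT2 ran from 0.42 (static 3D replicate 1 left out) to 1.88 (static 3D replicate 3 left out).

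Of 10 tested partners and regulators of PPARA, 8 were higher in perfused and 8 in static 3D than in 2D (medians 0.21 and 0.21), and 6 were higher in perfused than in static 3D (median 0.04), none called. RXRA, the partner of PPARA on DNA, had 12.01 and 11.58 in perfused 3D, 11.53, 11.79 and 11.83 in static 3D, and 10.63, 12.08 and 11.94 in 2D, so that only 2D replicate 1 lay apart. RXRA was at 0.25 (SE 0.42) in perfused and 0.17 (SE 0.37) in static 3D against 2D, and at 0.08 (SE 0.42) in perfused against static 3D. Without 2D replicate 1 the values against 2D were -0.21 and -0.29. PPARGC1A, a coactivator of fasting and of mitochondrial growth, was at 0.48 (SE 0.46), 0.58 (SE 0.41) and -0.09 (SE 0.46) in the same comparisons. MED1, a Mediator subunit that binds nuclear receptors, was at 0.64 (SE 0.44) and the acetyltransferase CREBBP at -0.56 (SE 0.27) in perfused 3D against 2D. PPARGC1A and MED1 were each detected on 2 of 3 2D arrays. PPARD, a related receptor, was at 0.40 (SE 0.27) in static 3D against 2D and at -0.29 (SE 0.30) in perfused against static 3D, where CREBBP was at -0.24 (SE 0.27).

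Malonyl-CoA blocks CPT1A, and 4 genes that set its level were tested, none called. ACACB, the mitochondrial acetyl-CoA carboxylase that makes it, was at 0.62 (SE 0.51) in perfused and at 0.95 (SE 0.46) in static 3D against 2D, and the perfused value turned to -0.34 with chip as a block. MLYCD, which destroys it, was detected on 1 of 2 perfused arrays (6.53 and 7.89, the second detected), on 1 of 3 static arrays (7.22, 6.29 and 6.64, the first detected) and on 0 of 3 2D arrays (6.37, 6.16 and 6.85), so no size is given for its differences. ACACA, the cytosolic carboxylase, was at -0.40 (SE 0.27) in static 3D against 2D and at 0.22 (SE 0.30) in perfused against static 3D, which turned to -0.29 with chip as a block.

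**Figure D5:**
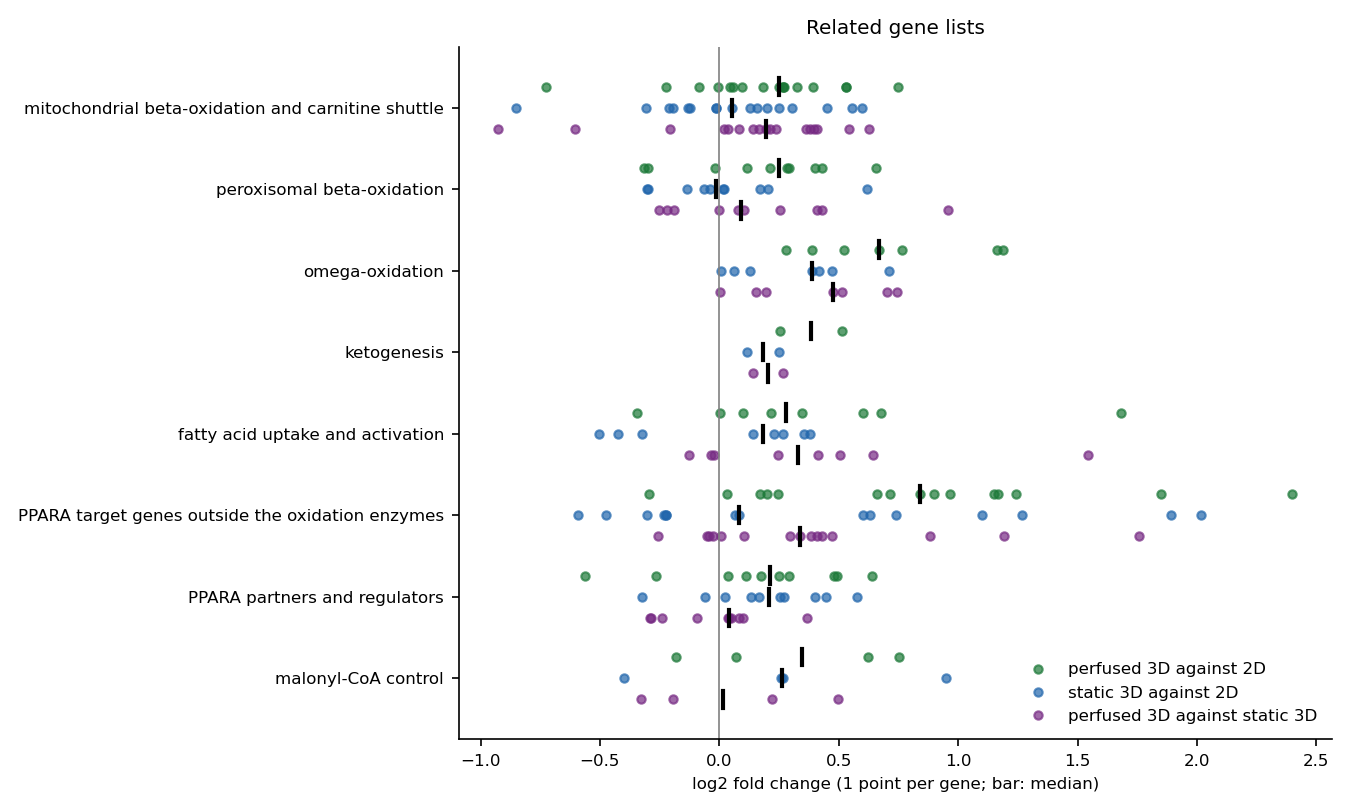
Log2 fold change of each tested gene (points) in 8 lists of related genes and the list median (bars), for the 3 comparisons, first group over second. The PPARA target genes have medians of 0.84, 0.08 and 0.34, and the omega-oxidation genes of 0.67, 0.39 and 0.48.

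Likeness of pattern was measured as the root mean square difference between 2 genes' log2 levels over the 8 arrays, each centred on its own mean. CPT2 was followed most closely by FKBP5, a cochaperone of the glucocorticoid receptor (0.0868), and OPTN, an autophagy receptor (0.127), where CPT2 itself deviated by 0.599 from its mean and its median difference from all genes was 0.697. CYP4A11 was followed by ARG1, the arginase of the urea cycle (0.418), and TMPRSS6, a liver protease of iron control (0.514), against its own 1.74. ACADS was followed by S100A14 (0.226) and the liver mitochondrial carrier SLC25A47 (0.230), against its own 0.726.

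HADHA was followed by HOOK2 (0.112) and the peroxisomal protease LONP2 (0.123), and EHHADH by NPDC1 (0.123) and adenosine deaminase, ADA (0.129), where the members' own deviations were 0.347 and 0.436. CPT1A was followed by SLC27A2 (0.164) and VSIG10L (0.179) against its own 0.466, and ACADM by ZBTB34 (0.118) and AEBP2 (0.122) against 0.272. The arrays are few and shared by all genes, and ADA, LONP2 and the others were picked from 11031 genes, so the values describe these 8 arrays.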

How the data were processed

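For each of 8 arrays the deposited file holds, per the file headers, an intensity per probe that was not normalised and its detection p-value. A second deposited table holds the authors' processed values, read here as log2 from the values. Its column medians ran from 7.46 to 7.64, and how it was normalised or centred remains unknown. Each of its columns ranks probes as the intensities do (Spearman correlation 1). From the intensities, log2 levels were made with limma 3.58.1 in R 4.3.3 (neqc: normexp background correction from the detection p-values, offset 16, quantile normalisation). The platform annotation, which can be old, gives 30113 of 47323 probes 1 gene symbol (updated through RefSeq gene IDs), 8 several and 17202 none. Probes detected at p under 0.05 on at least 2 arrays were kept (18556), and each gene was represented by its brightest kept probe, which left 11031 genes. A mean per group was fitted over all 8 arrays (lmFit, eBayes with intensity trend) with Benjamini-Hochberg adjustment at 0.05 over all genes. "Called" means past that threshold. Replicates were numbered in accession order. Precision is limited by the few arrays, with a median standard error over genes of 0.33 for perfused 3D against either group and 0.29 for static 3D against 2D. The fit was tested on simulated data.

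The members and the 8 pathway and 6 marker lists were chosen with earlier results of these data known. Beside the members, the text names per list and comparison the 2 genes with the smallest p, PDK4, ANGPTL4, PLIN2, RXRA and PPARGC1A throughout, and the 2 genes most like each member. Others (HADHB, C1QB, CD68) were chosen after their values were seen. The lower bound of CYP4A22 sets the bright group's mean against the lowest detected signal of each dim array. Alternatives covered background correction, normalisation, the probe filter and rule, chip, weights, the variance model and left-out arrays.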

Additional observations from a re-analysis of the deposited data

How the results depend on the processing

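No member was called in any of the 3 comparisons under any of 19 alternatives, and of 1555 recomputed fold changes of the 83 fitted ones none came to pass the threshold, with adjusted p-values from 0.140 upwards. CPT1A could not be recomputed where probes had to be detected on all 8 arrays. No paired analysis was possible because the labels give no replicate numbers. The limma adjusted p of ACADS over the alternatives ran from 0.285 to 1.00 in perfused 3D and from 0.247 to 0.999 in static 3D, both against 2D. Median scaling moved the median of all genes by -0.13 in static 3D against 2D and by 0.12 in perfused against static 3D.

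The sign turned in 78 fold changes, 22 of them of members, and the cause was not tested. With each array left out in turn, perfused 3D against 2D ran from -0.082 to 0.65 for CPT2, -0.11 to 0.56 for ACADM, -0.45 to 1.05 for PDK4, -0.21 to 0.51 for RXRA and -0.00018 to 0.78 for PPARGC1A. Static 3D against 2D ran from -0.41 to 0.52 for CPT2, -0.035 to 0.38 for HADHA, -0.26 to 0.85 for BDH1, -0.072 to 0.36 for ACAT1, -0.046 to 0.78 for CYP4F3, -0.94 to 0.62 for PDK4 and -0.29 to 0.43 for RXRA. Perfused against static 3D ran from -0.15 to 0.64 for CPT2, -0.36 to 0.30 for ACADM, -0.34 to 0.77 for BDH1, -0.072 to 0.35 for ACAT1, -0.19 to 1.18 for MLYCD, -0.49 to 0.011 for CREBBP, -0.31 to 1.14 for PDK4, -0.25 to 0.18 for ANGPTL4, -0.13 to 0.30 for RXRA and -0.32 to 0.13 for PPARGC1A.

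With chip as a block, perfused 3D against 2D gave -0.17 for CPT1A, -0.032 for HADHA, -0.997 for BDH1, -0.00098 for MLYCD, -0.34 for ACACB and -0.60 for ACOX2. Static 3D against 2D gave -0.26 for BDH1 and 0.51 for PDK4 there, and perfused 3D against static 3D gave 0.15 for ACADM, -0.075 for HADHA, -0.74 for BDH1, -0.0075 for MLYCD, -0.29 for ACACA, 0.43 for ANGPTL4 and 0.077 for PPARGC1A. With 2D replicate 1 and static 3D replicate 1 both left out, perfused 3D against 2D gave -0.082 for CPT2, -0.45 for PDK4, -0.21 for RXRA and -0.00018 for PPARGC1A. Static 3D against 2D gave -0.22 for HADHA, -0.28 for BDH1 and -0.20 for RXRA there, and perfused 3D against static 3D gave -0.15 for CPT2, -0.31 for PDK4 and -0.010 for RXRA. With array weights, perfused 3D against 2D gave -0.031 for RXRA. Static 3D against 2D gave -0.049 for HADHA, -0.074 for BDH1, -0.039 for ACAT1, 0.25 for PDK4 and -0.051 for RXRA there, and perfused 3D against static 3D gave -0.13 for PDK4. With median scaling, static 3D against 2D gave -0.17 for CPT2, -0.11 for ACAT1 and -0.071 for RXRA, and perfused 3D against static 3D gave 0.13 for ACADM, 0.11 for ANGPTL4 and 0.041 for PPARGC1A. With the authors' processed values, static 3D against 2D gave -0.098 for CPT2, -0.046 for ACAT1 and -0.0080 for RXRA, and perfused 3D against static 3D gave 0.10 for ACADM and 0.11 for ANGPTL4. With the mean of all kept probes, perfused 3D against static 3D gave 0.024 for ACADM, 0.12 for PPARD and 0.12 for ANGPTL4. Without background correction, perfused 3D against 2D gave -0.00020 for PDK4.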
